A study of Homo sapiens with 12 samples.

Results

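The NOTCH pathway genes described here are 10 genes chosen by name and role: the receptors NOTCH1, NOTCH2 and NOTCH3, the ligands JAG1 and JAG2, the DNA-binding factor RBPJ, its coactivators MAML1, MAML2 and MAML3, and the target gene HES1. All 10 were found among the 60609 genes counted in each library. Expression was measured by RNA-seq in K562, an established human cell line from a chronic myeloid leukemia. The 3 control cultures received the vehicle DMSO and the 3 treated cultures received FT671 at 10 μM, an inhibitor of the deubiquitinase USP7, and RNA was taken at 48 h. All 6 libraries come from this single cell line and carry no genetic change named in the labels, and the study speaks of independent experiments without saying how the cultures were separated. After FT671 the receptor NOTCH1, the ligand JAG2, the coactivators MAML1 and MAML2 and the target HES1 fell to between 51.8% and 65.6% of their DMSO level, while the ligand JAG1 rose from near the limit of detection and RBPJ did not pass the test.

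NOTCH signaling passes between touching cells. A ligand of the Jagged or Delta family on 1 cell pulls on a receptor on its neighbor, ADAM proteases and then the γ-secretase complex cut the receptor, and the freed intracellular domain moves to the nucleus. There it binds RBPJ, which otherwise sits on DNA with co-repressors, and a Mastermind-like protein (MAML) joins the pair and brings in histone acetyltransferases, so that genes such as HES1 are transcribed. In blood formation the pathway is best known for directing progenitors to the T cell lineage, and NOTCH1 is a frequent oncogene of T cell leukemia.

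The promoters of the target and of the Jagged pair are shown because HES1 is a direct target of RBPJ and because JAG1 and JAG2 changed in opposite directions. Each window runs from 250 bases before to 50 bases after the RefSeq start of the gene, 5′ to 3′ on the strand of the gene, in build GRCh38.p14. Capitals mark the RBPJ core TGGGAA and the looser RBPJ motif GTGNGAA, both searched on both strands. The motifs overlap wherever a GTGGGAA stands.
HES1, chr3:194135898-194136197, plus strand: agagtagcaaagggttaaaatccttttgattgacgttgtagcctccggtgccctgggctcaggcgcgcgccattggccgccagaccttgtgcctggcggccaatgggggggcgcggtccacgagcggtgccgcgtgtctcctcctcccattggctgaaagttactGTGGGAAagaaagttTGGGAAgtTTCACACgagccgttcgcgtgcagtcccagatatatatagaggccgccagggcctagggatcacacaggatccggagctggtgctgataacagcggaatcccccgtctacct
JAG1, chr20:10673950-10674249, minus strand: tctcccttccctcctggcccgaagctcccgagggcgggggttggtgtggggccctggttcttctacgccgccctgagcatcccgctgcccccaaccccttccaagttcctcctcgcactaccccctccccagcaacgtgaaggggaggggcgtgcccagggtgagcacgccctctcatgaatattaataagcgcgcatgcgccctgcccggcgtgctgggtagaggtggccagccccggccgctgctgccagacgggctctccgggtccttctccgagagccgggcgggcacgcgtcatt
JAG2, chr14:105168727-105169026, minus strand: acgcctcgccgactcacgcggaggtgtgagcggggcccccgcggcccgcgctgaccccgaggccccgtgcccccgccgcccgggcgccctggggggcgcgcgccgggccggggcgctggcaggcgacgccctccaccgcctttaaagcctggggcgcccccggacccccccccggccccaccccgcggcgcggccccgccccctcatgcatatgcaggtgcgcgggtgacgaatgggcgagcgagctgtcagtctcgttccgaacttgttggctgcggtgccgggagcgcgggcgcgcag

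The HES1 window held TGGGAA 84 and 70 bases upstream of the start, both on the strand of the gene. GTGNGAA stood once on each strand, with 16 bases between the matches. Of 35114 human promoter windows of the same length, 24.0% held TGGGAA at least once and 3.8% held it 2 or more times, while 13.8% held GTGNGAA and 0.572% held it on both strands. RefSeq listed 14 windows for the 10 genes. Besides HES1, the motifs were found in 1 of the 5 windows of RBPJ itself, chr4:26319496-26319795, where each motif stood on both strands. The windows of NOTCH1, NOTCH2, NOTCH3, JAG1, JAG2, MAML1, MAML2 and MAML3 held neither spelling. The most CpG dinucleotides, 50, were in another RBPJ window. JAG2 had 46, NOTCH1 42, NOTCH3 and MAML3 37 each, NOTCH2 33, MAML1 29, JAG1 24, HES1 21 and MAML2 13. The remaining RBPJ windows held 0 to 31, and the median over all human windows was 14.

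The libraries held 4555220 to 14250500 counts, so that 3 counts, taken as the floor of detection, equal 0.208 to 0.666 CPM (read counts scaled to a common, TMM-adjusted library size). Erythroid genes that mark K562 were present, all 7 tested and their summed level 1209.9 to 1258.5 CPM in DMSO and 978.2 to 1013.0 CPM in FT671. Of these, GATA1, TAL1, KLF1 and TFRC fell and the fetal globins HBG1 and HBG2 rose (edgeR, adjusted p below 0.05). Among T cell markers CD2 and LCK were at 0 in every library, CD3E did not exceed 4 counts and CD5 did not exceed 1, while CD3D rose from 18.3 ± 1.92 to 25.6 ± 3.24 CPM (SD, n = 3 libraries each). The summed B cell and fibroblast lists reached at most 4.0 and 2.91 CPM, and 4 of 5 endothelial genes were below 1 CPM, with PECAM1 at about the same level in both groups. DMSO replicate 3 differed more from the other DMSO libraries than these did from each other, the chi-square statistic divided by its degrees of freedom being 7.55 and 8.73 against 2.94. The part of these differences in the NOTCH results was not tested.

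FT671 changed much of the transcriptome, which sets the background for every count below. Of 13895 genes that passed the filter on low counts, 26.5% were lower and 23.6% were higher at an adjusted p of 0.05 (edgeR's quasi-likelihood test, Benjamini-Hochberg over all tested genes). At 1e-05, 4.13% were lower and 1.79% higher by the same edgeR test. The study's methods applied this threshold to DESeq2's adjusted p. By DESeq2's Wald test 1158 of 15724 genes were lower and 795 higher at 1e-05 here. All FT671 libraries lay below all DMSO libraries for 30.3% of the tested genes and above them for 26.8%. Of the 10 NOTCH genes, NOTCH2, NOTCH3 and MAML3 had too few counts to be tested, and JAG1 passed the filter only through its FT671 libraries. With these bounds, 5 of the 10 genes were called lower and 1 higher at 0.05, and at 1e-05 MAML1 was called lower and JAG1 higher. The calls at 0.05 held with any 1 library left out, but at 1e-05 no member was called lower without either DMSO replicate 1 or 2 or any FT671 library, 5 were without DMSO replicate 3, and JAG1 kept its call only without DMSO replicate 3. By DESeq2's Wald test 5 of the 10 genes were lower at 1e-05, and the number higher was as in edgeR. Because this is RNA from whole cultures, less RNA in every cell and the same RNA in fewer cells cannot be told apart.

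**Figure D1:**
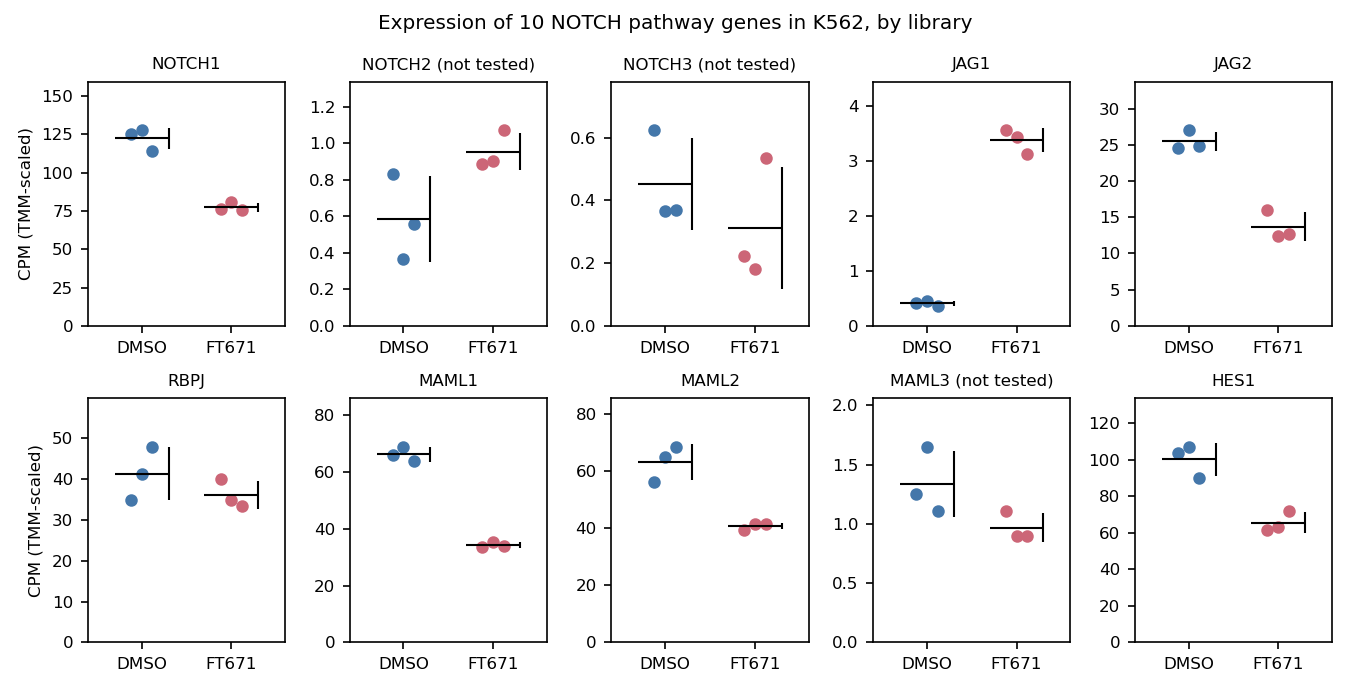
Each panel plots the CPM of 1 of the 10 NOTCH genes (y axis, from 0, TMM-scaled) in the 3 DMSO and 3 FT671 libraries, with a horizontal line at the mean and a vertical bar of ± 1 SD. FT671 points lie below all DMSO points for NOTCH1, JAG2, MAML1, MAML2 and HES1 and above them for JAG1. For RBPJ 1 FT671 point lies among the DMSO points and 2 lie just below them, while NOTCH2, NOTCH3 and MAML3 sit near 1 CPM or below.

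NOTCH1 was the most abundant NOTCH receptor in these cells. The gene (ENSG00000148400, chr9:136494433-136546048, minus strand, GENCODE release 44 on hg38) was measured at 125.1, 127.6 and 114.4 CPM in DMSO and at 76.4, 80.8 and 75.4 CPM in FT671. The groups did not overlap, and the highest treated library stood well below the lowest control. On the log2 scale NOTCH1 fell by 0.66 ± 0.08 (SE, n = 3 against 3, edgeR adjusted p = 1.15e-05), to 63.2% of DMSO. A lncRNA on the other strand, ENSG00000227512, lies within the NOTCH1 locus without sharing exon bases, and it had at most 3 counts in a library.

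NOTCH2 and NOTCH3, the other receptors in the list, were close to the floor. NOTCH2 (ENSG00000134250, chr1:119911553-120100779, minus strand) had 12, 4 and 3 counts in DMSO and 4, 5 and 12 in FT671, or 0.584 ± 0.234 and 0.954 ± 0.103 CPM (SD, n = 3). Although every treated library lay above every control, these are differences of a few counts, and in a fit without the filter the log2 fold change was 0.64 ± 0.53 (SE, edgeR adjusted p = 0.506). The near-identical NOTCH2NL genes and the pseudogene NOTCH2P1 were at 0 counts in all libraries, and how reads that match several copies were counted is not given in the sources used here. NOTCH3 (ENSG00000074181, chr19:15159038-15200995, minus strand) had 9, 4 and 2 counts in DMSO and 1, 1 and 6 in FT671. Its groups overlapped, and without the filter its log2 fold change was -0.41 ± 0.73 (SE, edgeR adjusted p = 0.727). A difference in these receptors was not detectable at this depth. NOTCH4, the remaining human receptor, was similarly low, with 23, 15 and 4 counts in DMSO and 5, 5 and 11 in FT671, and was not tested.

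The Jagged ligands moved in opposite directions. JAG2 (ENSG00000184916, chr14:105140982-105168824, minus strand), the more abundant ligand of the pair, was at 24.6, 27 and 24.8 CPM in DMSO and at 16.0, 12.4 and 12.7 CPM in FT671. It fell by 0.92 ± 0.13 on the log2 scale (SE, n = 3 against 3, edgeR adjusted p = 4.78e-05), with no overlap between groups. A lncRNA on the same strand, ENSG00000257622, shares 469 exon bases with JAG2 and had 0 counts throughout.

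JAG1 (ENSG00000101384, chr20:10637684-10673999, minus strand) had 6, 5 and 2 counts in the DMSO libraries and 16, 19 and 35 in the FT671 libraries. In CPM these were 0.415, 0.458 and 0.37 against 3.55, 3.43 and 3.13. The control libraries were near the floor of detection and the treated libraries formed a tight group above it. The fitted log2 fold change was 2.93 ± 0.34 (SE, n = 3 against 3, edgeR adjusted p = 8.47e-06), which depends on how the fit treats low counts. JAG1 passed the filter only through its FT671 libraries, so no conclusion is drawn from this adjusted p. From the summed counts alone, 70 against 13, the rate was 7.8 times as high in FT671, with an exact 95% interval of 4.28 to 15.4 that covers counting error only. Its treated level was 3.37 ± 0.22 CPM (SD, n = 3). An opposite-strand lncRNA that shares 306 exon bases with JAG1, ENSG00000270792, had 2 counts in all DMSO and 4 in all FT671 libraries.

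Because both ligands bind the same receptors, their balance was compared within each library, where library scaling cancels. JAG1 made up 1.15%, 1.15% and 1.02% of Jagged transcripts per kilobase of exon in DMSO and 13.3%, 15.9% and 14.5% in FT671. The mean log2 ratio of JAG1 to JAG2 counts was -5.76 ± 0.01 in DMSO and -1.99 ± 0.15 in FT671 (SD, n = 3), a difference of 3.77. The DMSO shares and ratios rest on 6, 5 and 2 JAG1 counts, so they are less certain than their closeness and SD imply. By the exact two-sided permutation test p was 0.1 and 0.1 after adjustment over the 2 paralog pairs tested, the smallest p that 3 against 3 libraries allow. The pair entered this test only because JAG1 passed the filter through its FT671 libraries, so no conclusion is drawn from it. The summed Jagged level remained mostly JAG2 and was 3.89, 4.27 and 3.91 CPM per kilobase in DMSO and 2.88, 2.31 and 2.32 in FT671, so that the rise of JAG1 did not make up for the fall of JAG2 in transcript number.

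**Figure D2:**
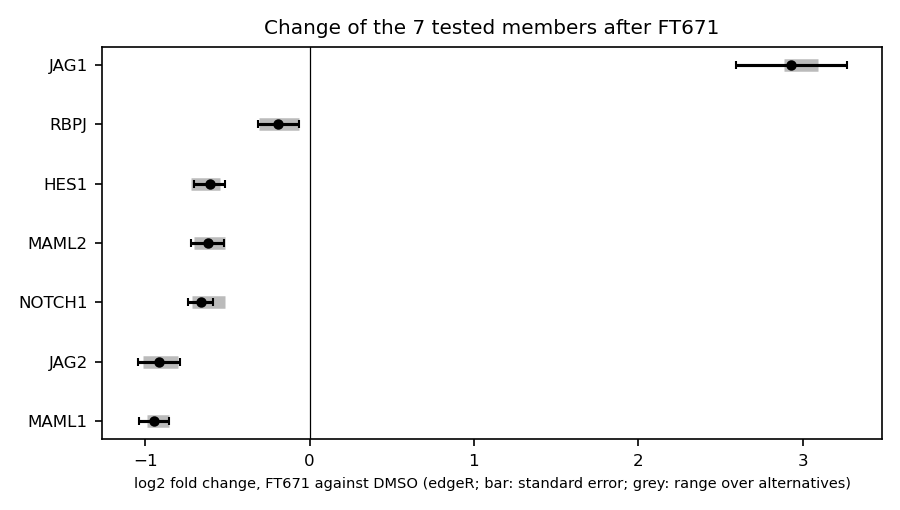
Points show the log2 fold change of the 7 tested NOTCH genes (x axis, FT671 against DMSO), black bars the standard error of the edgeR fit, and grey bars the lowest and highest value over the alternative fits. JAG1 stands alone on the right, RBPJ lies next to 0, and the other 5 genes lie between -0.95 and -0.61.

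RBPJ (ENSG00000168214, chr4:26163455-26435131, plus strand), the factor that carries the NOTCH signal to DNA, was at 35.0, 41.2 and 47.9 CPM in DMSO and at 40.0, 34.8 and 33.5 CPM in FT671. The groups overlapped, and the log2 fold change of -0.19 ± 0.12 did not pass the test (SE, n = 3 against 3, edgeR adjusted p = 0.219). Its spread among the controls was wide, so a modest fall cannot be told from none.

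MAML1 and MAML2 encode the coactivators that lock the receptor fragment onto RBPJ. MAML1 (ENSG00000161021, chr5:179732822-179777283, plus strand) was at 65.9, 68.8 and 63.8 CPM in DMSO and 33.5, 35.5 and 34.0 CPM in FT671. It fell by 0.95 ± 0.09 on the log2 scale (SE, n = 3 against 3, edgeR adjusted p = 1.78e-06), to 51.8% of the control level, the lowest share among the tested members. MAML2 (ENSG00000184384, chr11:95976598-96343195, minus strand) was at 56.3, 64.9 and 68.6 CPM in DMSO and 39.5, 41.7 and 41.4 CPM in FT671. It fell by 0.62 ± 0.10 (log2, SE, n = 3 against 3, edgeR adjusted p = 1.61e-04), and the groups of both genes stood apart.

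Reads of MAML2 cannot be told from those of its opposite-strand neighbors where exons overlap, since the sources used here do not give the strand setting of the counting. The lncRNA ENSG00000285921 shares 549 exon bases with MAML2 and stood at 11.2 ± 1.69 CPM in DMSO and 6.73 ± 1.41 CPM in FT671 (SD, n = 3). MIR1260B, which lies within a MAML2 exon, stood at 3.55 ± 0.34 and 2.27 ± 0.68 CPM. MAML3 (ENSG00000196782, chr4:139716753-140154184, minus strand) was scarce, with 18, 18 and 6 counts in DMSO and 5, 5 and 10 in FT671, and it shares 252 exon bases with the opposite-strand gene MGST2. Without the filter its log2 fold change was -0.56 ± 0.45 (SE, edgeR adjusted p = 0.476).

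MAML1 and MAML2 had about equal counts in DMSO, with a mean log2 ratio of 0.07 ± 0.17, and MAML1 was the less counted of the pair in FT671, at -0.25 ± 0.03 (SD, n = 3). All treated ratios lay below all control ratios, and the exact two-sided permutation test gave the smallest possible p of 0.1 (adjusted p = 0.1). Relative to RBPJ, the partner they bind, the counts of both coactivators were lower after treatment. The count ratio of MAML1 to RBPJ was 1.88, 1.67 and 1.33 in DMSO and 0.839, 1.02 and 1.01 in FT671, and that of MAML2 to RBPJ was 1.61, 1.58 and 1.43 against 0.989, 1.2 and 1.23. NOTCH1 counts were 3.57, 3.1 and 2.39 times those of RBPJ in DMSO and 1.91, 2.32 and 2.25 times in FT671. For each of these 3 genes the groups did not overlap, and the ratios, which were added after the values were seen, were not tested.

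HES1, a transcriptional repressor and the best known RBPJ target, is the member whose promoter is shown above with its motifs. The gene (ENSG00000114315, chr3:194136148-194138732, plus strand) was at 103.9, 107.1 and 89.8 CPM in DMSO and 61.5, 63.1 and 72.1 CPM in FT671. It fell by 0.61 ± 0.09 on the log2 scale (SE, n = 3 against 3, edgeR adjusted p = 1.14e-04). The groups did not overlap, with DMSO replicate 3 the lowest control and FT671 replicate 3 the highest treated library. Against RBPJ the HES1 ratio was 2.97, 2.6 and 1.88 in DMSO and 1.54, 1.81 and 2.15 in FT671, and here the groups did overlap.

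Compared per kilobase of exon, HES1 was the most abundant of the 10 transcripts in DMSO, at 48.7 ± 4.46 CPM per kilobase (SD, n = 3). MAML1 at 11.1, NOTCH1 at 9.76 and MAML2 at 8.89 followed, then JAG2 at 3.98 and RBPJ at 2.7. Far below lay MAML3 at 0.195, NOTCH3 at 0.0482, JAG1 at 0.0446 and NOTCH2 at 0.0349. The libraries of NOTCH1 and MAML2 overlapped, as did those of NOTCH3 and JAG1 and of JAG1 and NOTCH2, so these neighbors in the order did not differ beyond their spread. In FT671 HES1 still led with 31.9 ± 2.77 CPM per kilobase. NOTCH1 at 6.19 now stood above MAML1 at 5.76 (by the longest transcript it did so in both groups). MAML1 overlapped with MAML2 at 5.74, and RBPJ at 2.36 overlapped with JAG2 at 2.14. JAG1 at 0.362 lay above MAML3 at 0.142, NOTCH2 at 0.057 and NOTCH3 at 0.0333. RBPJ has many annotated exons, and by its longest transcript it stood at 7.18 CPM per kilobase in DMSO and 6.27 in FT671.

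The rest of the pathway was followed in 7 lists holding 73 other genes, of which 54 were tested. At 0.05, 27 were lower and 12 were higher, which is 50.0% and 22.2% of the tested genes against 26.5% and 23.6% of all genes. Their median log2 fold change was -0.28, against -0.01 over all tested genes.

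Among the other receptors and ligands 3 of 7 genes were tested and all 3 rose, while 23.6% of all tested genes were higher. DLL3, a divergent Delta ligand known as an inhibitor of NOTCH within its own cell, had 4.22, 6.41 and 3.14 CPM in DMSO and 9.55, 11.5 and 12.5 CPM in FT671 (log2 fold change 1.26 ± 0.22, SE, edgeR adjusted p = 2.92e-04). DLL4, an activating Delta ligand, went from 2.15, 1.65 and 2.4 to 4.44, 4.51 and 4.56 CPM (1.15 ± 0.24, edgeR adjusted p = 0.00125). DLK1, a Delta-like protein that lacks the domain used to activate receptors, rose from 418.7 ± 40.5 to 864.2 ± 41.8 CPM (SD, n = 3, log2 fold change 1.04 ± 0.08, SE, edgeR adjusted p = 2.34e-07). JAG1 from the 10 genes was also higher in FT671, though it passed the filter only through those libraries. JAG2 was the tested ligand that fell. DLL1 had at most 3 counts in a library, DLK2 had at most 10, and DNER had none.

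**Figure D3:**
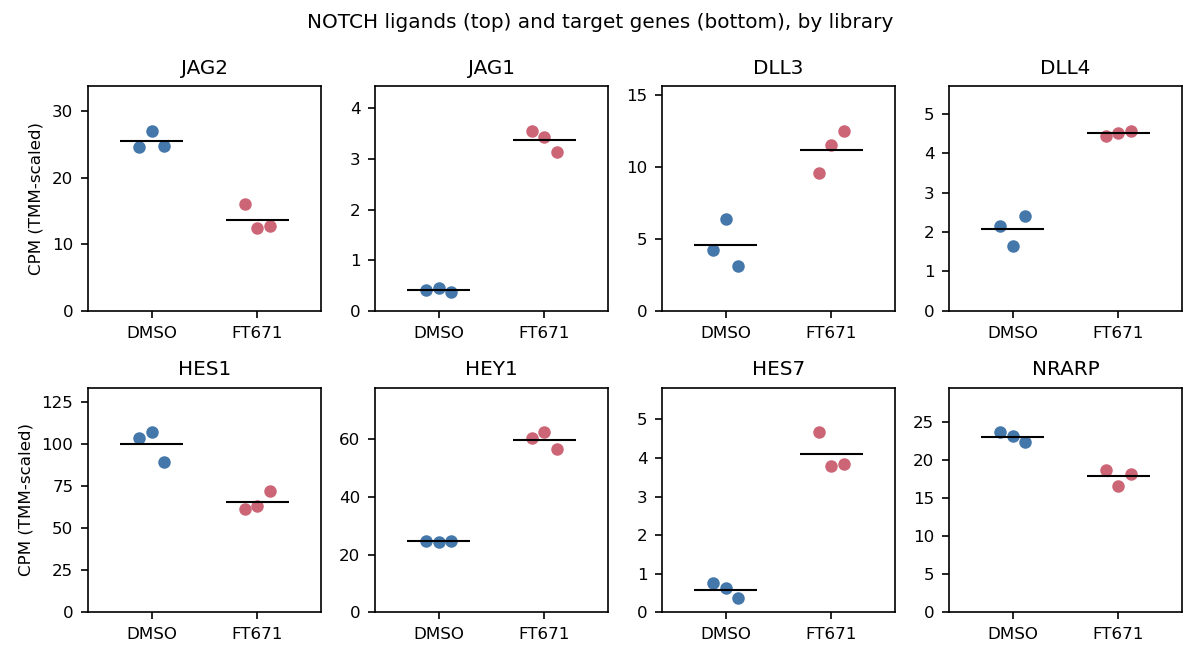
Panels plot CPM (y axis, from 0, TMM-scaled) in the 3 DMSO and 3 FT671 libraries for 4 ligands in the top row and 4 target genes in the bottom row, with a line at each mean. JAG2, HES1 and NRARP are lower in all FT671 libraries, while JAG1, DLL3, DLL4, HEY1 and HES7 are higher in all of them.

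Receptors are cut and glycosylated on their way to the surface. Of 7 such genes 5 were tested, 2 were lower and none was higher at 0.05. The share lower was 40.0%, against 26.5% of all tested genes, of which 23.6% were higher. FURIN, the protease of the first cut, fell from 349.4 ± 30.5 to 196.9 ± 7.42 CPM (log2 fold change -0.83 ± 0.08, SE, edgeR adjusted p = 1.54e-06). EOGT, an enzyme that adds N-acetylglucosamine to the extracellular repeats, fell from 7.99 ± 0.91 to 4.58 ± 1.19 CPM (log2 -0.81, edgeR adjusted p = 0.00511, and 0.0501 without FT671 replicate 3). The fringe genes LFNG and MFNG were too low to be tested, and RFNG did not pass (edgeR adjusted p = 0.0803). RFNG was called higher with the GC correction and in the fits with a replicate block, with or without GC or gene length correction, at an adjusted p of 0.000894 to 0.0315.

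The proteases that release the intracellular domain were all tested, 5 of 8 lower and 1 higher. These are 62.5% and 12.5%, against 26.5% and 23.6% of all tested genes. ADAM17 fell by 0.82 on the log2 scale, from 54.7 ± 4.06 to 30.7 ± 3.83 CPM (edgeR adjusted p = 3.51e-05), and it shares 1645 exon bases with the opposite-strand gene IAH1. APH1B, a subunit of γ-secretase, fell by 0.79, from 10.9 ± 1.72 to 5.81 ± 1.89 CPM (edgeR adjusted p = 0.00605). Its relative APH1A stood at 112.7 ± 9.46 CPM in DMSO and 110.4 ± 3.06 CPM in FT671 and did not pass (edgeR adjusted p = 0.721). PSENEN, the smallest subunit, rose by 0.43 on the log2 scale (edgeR adjusted p = 0.0232), a call that was lost under 4 of the alternatives, among them the fits without DMSO replicate 1, FT671 replicate 1 or FT671 replicate 2. It shares exon bases with ENSG00000188223 on its own strand and with a lncRNA on the other.

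Of 15 genes for ligand and receptor endocytosis and ubiquitin ligation, 10 were tested, 5 were lower and none was higher. The share lower was 50.0%, against 26.5% of all tested genes, of which 23.6% were higher. MIB2, a ligase for NOTCH ligands, fell from 27.4 ± 3.24 to 14.6 ± 1.99 CPM (log2 -0.95, edgeR adjusted p = 6.07e-05), and its relative MIB1 stood at 123.2 ± 15.3 and 122.7 ± 9.41 CPM. The difference between these relatives was not tested. NEDD4, a ubiquitin ligase, fell by 0.93 (edgeR adjusted p = 6.23e-06) and AAK1, a kinase of the clathrin adaptor, by 0.79 (edgeR adjusted p = 2.77e-05). DTX2 fell by 0.30 (edgeR adjusted p = 0.0293), and this call was lost under 9 of the alternatives. The number lower was 3 without FT671 replicate 2 or 3. With the gene length correction 3 were lower and 1, FBXW7, was higher.

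On the nuclear side, 15 of 16 co-repressors of RBPJ were tested, with 9 lower and 4 higher. These are 60.0% and 26.7% of the tested co-repressors, against 26.5% and 23.6% of all tested genes, so the share higher was near the background. The number higher was 1 without DMSO replicate 1 or FT671 replicate 3 and 2 without DMSO replicate 2 or FT671 replicate 2. It was also 2 with library totals alone or DESeq2's Wald test and 1 with no filter. TLE3, a Groucho-type co-repressor, went from 246.1, 270.1 and 233.7 CPM in DMSO to 82.6, 81.4 and 81.4 CPM in FT671 (log2 fold change -1.61 ± 0.08, SE, edgeR adjusted p = 9.7e-09). TLE4 fell by 0.91 (edgeR adjusted p = 7.3e-04). CTBP2 rose by 0.61 on the log2 scale (edgeR adjusted p = 0.0315), a call lost under 7 alternatives, and it shares 3416 exon bases with the opposite-strand gene ZRANB1.

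All 6 coactivator genes passed the test, 4 lower and 2 higher. These are 66.7% and 33.3%, against 26.5% and 23.6% of all tested genes. The acetyltransferase EP300 fell from 145.6 ± 6.77 to 92.1 ± 7.08 CPM (log2 -0.65, edgeR adjusted p = 1.7e-05), and CDK8, the kinase that marks the intracellular domain for turnover, fell by 0.91 (edgeR adjusted p = 7.89e-06). The closely related acetyltransferases KAT2A and KAT2B moved apart. KAT2B was at 32.3, 28.0 and 35.7 CPM in DMSO and 12.7, 15.3 and 18.9 CPM in FT671 (log2 -0.97, edgeR adjusted p = 8.42e-05), and KAT2A was at 30.2, 36.2 and 25.9 CPM against 67.7, 53.8 and 57.4 CPM (log2 0.93, edgeR adjusted p = 3.75e-05). KAT2A shares 405 exon bases with ENSG00000267261 on its own strand.

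Target genes other than HES1 did not move together. Of 15 listed, 7 were tested, 2 were lower, 2 were higher and their median log2 fold change was 0.06. These counts are 28.6% each of the tested targets, near the 26.5% lower and 23.6% higher among all tested genes. HEY1, a repressor related to HES1, was at 24.7, 24.5 and 24.6 CPM in DMSO and at 60.2, 62.2 and 56.6 CPM in FT671, a rise of 1.27 ± 0.10 on the log2 scale (SE, n = 3 against 3, edgeR adjusted p = 1.93e-07). HES7, the oscillating repressor of somite formation, had 11, 7 and 2 counts in DMSO and 21, 21 and 43 in FT671 (log2 2.62 ± 0.31, SE, edgeR adjusted p = 1.27e-05), and like JAG1 it passed the filter only through its treated libraries. MYC fell from 358.4 ± 16.8 to 240.8 ± 5.64 CPM (log2 -0.57, edgeR adjusted p = 1.22e-05). NRARP, a feedback inhibitor of the NOTCH complex, fell from 23.0 ± 0.63 to 17.8 ± 1.09 CPM (log2 -0.37, edgeR adjusted p = 0.013, a call lost under 3 alternatives, among them the fits without DMSO replicate 1 or FT671 replicate 2). HES1 and HEY1 thus stood on opposite sides of their controls in every treated library.

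The remaining targets gave little. HES4 was at 13.2 ± 2.12 CPM in DMSO and 12.9 ± 0.75 CPM in FT671, and HEYL at 1.65 ± 0.36 and 1.85 ± 0.29 CPM (SD, n = 3), with overlapping groups. HES5, HEY2 and DTX1 had at most 2 counts in any library, and the T lineage targets PTCRA and IL7R had none, so a difference in them was not detectable.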

How the data were processed

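Libraries were made from K562 total RNA after removal of rRNA. The authors mapped read pairs to hg38 using STAR and deposited the raw read counts per gene of each library. The STAR version, the annotation and the strand setting are not given in the sources used here. The 6 ChIP samples of the series were not analysed here. Groups came from the sample titles, and no per-sample column of other samples was found (0).

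Of 60609 genes, 60295 were matched to GENCODE release 44, and the 314 unmatched held 0.0609% of counts. Counts were filtered with filterByExpr (13895 genes kept), scaled by TMM and tested with edgeR 4.0.16 (R 4.3.3) by its quasi-likelihood test, without covariates and with Benjamini-Hochberg adjustment over all tested genes. The unit used for levels is CPM with TMM-scaled library sizes, per kilobase of summed exons where genes are compared. Library depth ranged from 4555220 to 14250500 counts. DESeq2 1.42.0, limma 3.58.1 and Python 3.11.15 were also used. Alternatives were other scalings, DESeq2's Wald test, other filters, a replicate block, gene length and GC corrections (loess, span 0.3) and leaving out each library. The main fit and those with other scalings, other filters, DESeq2, the replicate block or the gene length correction were tried on simulated data. The GC corrections and the fits with a library left out were not. Since replicates may not be fully separate cultures, p-values set the differences against the variation between these samples only. Exact permutation tests over libraries compared paralog ratios, with 0.5 added to each count.

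Named are the 10 genes, up to 4 genes per pathway list with the largest log2 fold change among those past 0.05 whose groups do not overlap, and NOTCH4, DLL1, DLL3, DLL4, HES4, HES5, HEY1, HEY2, HEYL, NRARP and DTX1. MIB1, APH1A, FBXW7, RFNG, LFNG, MFNG, DLK2, DNER, PTCRA and IL7R were named after their values were seen. A few genes that this rule names are not reported here, though the counts over their lists include them. The members and lists were chosen with earlier results of these data known.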

Additional observations from a re-analysis of the deposited data

How the results depend on the processing

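All 7 tested members kept their direction and their side of 0.05 under each alternative that gave a value. JAG1 gave none when 10 counts were required in every library, so 0 members were then higher. Calls at 1e-05 were less stable, and the cause was not tested. The number of members lower, 1 in the report, was 2 with library totals alone, the replicate block, the gene length correction (alone or blocked), or the GC correction with the block, 3 with the GC correction, and 5 with DESeq2 or no filter. Leaving out 1 library gave 0 to 5, the highest without DMSO replicate 3. The number higher, 1 in the report, was 0 with library totals, the stricter filter, the replicate block or the GC correction with the block, and 0 to 1 with 1 library left out.

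Over all genes 574 were lower and 249 higher at 1e-05. DESeq2 gave 1158 and 795, no filter 1757 and 977, the GC correction 1081 and 909, and the gene length correction with the replicate block 864 and 730. The gene length correction gave 474 higher, the replicate block 402, and the GC correction with the block 636. Leaving out 1 library gave 73 to 1501 lower and 34 to 1106 higher, lowest without FT671 replicate 3 and highest without DMSO replicate 3. In the pathway lists, 5 lower and 2 higher genes became 14 and 4 with DESeq2, 15 and 5 with no filter, 12 and 4 with the GC correction, and 11 and 4 with the gene length correction and the block. The replicate block gave 10 lower, the GC correction with the block 9 lower and the gene length correction 4 higher. Leaving out 1 library gave 1 to 14 lower and 1 to 5 higher. The longest transcript in place of summed exons moved 6 members in the order of levels in DMSO and 3 in FT671, and leaving out 1 library moved 0 to 2 in each.

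HES4, which did not pass the test, changed sign to 0.089 with the GC correction, 0.066 with the block added, and 0.0058 and 0.00096 without DMSO replicate 1 or 2, within a range of -0.16 to 0.0058 over the libraries left out. HEYL became -0.044 without DMSO replicate 3 and -0.055 without FT671 replicate 2, within -0.055 to 0.20. Same-numbered libraries correlated at 0.115, -0.0605 and 0.14 in their deviations from the group means, so the numbers were not treated as a pairing, and the block changed no call of a member at 0.05. Depth limits what can be said of NOTCH2, NOTCH3 and MAML3.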
